A study of Homo sapiens with 9 samples.

Results

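The Krüppel-like factors (KLFs) were read in a SLAM-Seq experiment on acute JUN depletion, a sequencing assay that counts mRNA and marks the part of it made during a short pulse. The members were taken by gene symbol, as rows whose RefSeq identifier belongs to KLF2, KLF3, KLF4, KLF5, KLF6, KLF7, KLF9, KLF10, KLF11 or KLF13, which made 10 of 25801 genes. The cells were MCF10A, a non-transformed human mammary epithelial line, in which the endogenous JUN gene is knocked out and JUN is supplied as a fusion to an auxin-inducible degron together with the receptor TIR1. All groups carried this background, so that also in the controls JUN came from a vector, under the EF1a promoter, and not from its own locus. There were 3 groups with 3 libraries each. The no 4sU controls received no label, and their labels name neither DMSO nor IAA. The DMSO 4sU cells received the solvent for 1 h and then 100 µM 4-thiouridine (4sU) for 1 h. The IAA 4sU cells received 100 µM of the auxin indole-3-acetic acid (IAA), which degrades the JUN fusion protein, for 1 h before the same pulse. Sequencing was from the 3′ ends of mRNA, and 4sU built into RNA during the pulse is read as C in place of T. 2 values were given for each 3′ interval of a transcript. The T>C conversion rate is the share of sequenced T positions at which C was read, and CPM is the number of reads of the interval scaled to the depth of the library.

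KLFs are transcription factors that bind GC-rich and CACCC sequences through C-terminal zinc fingers. KLF2, KLF4, KLF5, KLF6 and KLF7 act mainly as activators, KLF3 recruits the corepressor CtBP, and KLF9, KLF10, KLF11 and KLF13 recruit SIN3. In epithelia KLF4 and KLF5 are known for their roles in differentiation and proliferation of basal cells, and several KLF mRNAs are known to be induced fast and to be short-lived.

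The libraries held 18997637 to 24014195 reads, and the values of 1 read could be recovered from the CPM. The 3 IAA columns were identical in all 56868 rows, while the DMSO 4sU columns differed in 35279 rows. They were therefore counted as 1 library, whose replicate number is not known. No p-value is given for a comparison with it. All 8 markers of mammary basal epithelium examined were at 1 CPM or more in each library, with KRT5 between 519 and 709 CPM. They were uneven, with TP63 at 15.0 to 19.3 CPM and the basal keratin KRT14 lowest at 3.63 to 10.6 CPM. KRT14 was thus about as low as COL1A1, a marker of other cells given next. The 6 markers of other cell types examined summed to 3.68 to 10.3 CPM, mostly from the fibroblast marker COL1A1 (3.21 to 9.82 CPM), which was the only one of them at 1 CPM or more in each library. PECAM1 reached 1.08 CPM and ESR1 0.47 CPM, ALB and GFAP were at most at 0.141 CPM, and PTPRC was at 0. Over the 6816 genes with at least 200 reads on average, the median conversion rate was 0.0574% to 0.0599% without 4sU and 0.236%, 0.182% and 0.177% in DMSO 4sU replicates 1, 2 and 3. The labels do not say how the replicates of a group were made, and the study calls them biological replicates.

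Of the 10 members, 9 passed the filters on low values, and KLF2 did not. KLF2, a factor best known from endothelial cells, had 3 to 6 reads in any library. Its interval (NM_016270) covered 500 bases, whereas its 3′ UTR in the GENCODE annotation of GRCh37 (chr19:16437840-16439496) covers 1657 bases. Reads outside the interval were not counted. KLF2 had a rate of 0 in the 6 DMSO 4sU and no 4sU libraries and 1.08% in the IAA values, which rests on 4 reads.

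The first comparison asks how strongly each KLF mRNA was labelled in 1 h, which follows the share of the mRNA made during the pulse. All 9 KLFs that passed the filter gained conversions with 4sU, and KLF6 carried the most and KLF13 the least. KLF6 (NM_001160124), an activator known as an immediate early gene, had conversion rates of 6.87%, 5.57% and 5.36% in DMSO 4sU replicates 1, 2 and 3 and 0.0621%, 0.0260% and 0.0409% in the libraries without 4sU. Every labelled library thus lay far above every unlabelled one. The log2 change was 6.02 (SE 0.35, adjusted p = 0.000454, limma). Its mean rate exceeded that of 99.9% of the 6809 genes with a mean of 200 reads or more.

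KLF10 (NR_103759), a SIN3-binding repressor induced by TGF-beta, followed with 3.68%, 3.23% and 2.51%, against 0.0663%, 0.115% and 0.101% without 4sU. The lowest labelled KLF6 library was above the highest for KLF10, and the lowest for KLF10 was above the highest for KLF7. KLF7 (NM_001270943), an activator close to KLF6 in sequence, had 2.16%, 2.0% and 1.57%. KLF5 (NM_001286818), an activator of proliferation in epithelia, had 1.76%, 1.10% and 1.35%, and 97.9% of genes had a lower mean rate. The CtBP-binding KLF3 (NM_016531) was less uniform, with 2.77%, 1.25% and 0.905%.

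KLF4 (NM_004235) had 2.11%, 1.29% and 2.17%. The SIN3-binding KLF11 (NM_001177716) had 1.19%, 1.39% and 2.14%, and KLF9 (NM_001206) had 1.2%, 1.27% and 1.45%. In the order of mean rates, which ran KLF7, KLF4, KLF3, KLF11, KLF5 and KLF9 below KLF10, each of these 6 overlapped its neighbours among the 6, so their ranks are not settled by 3 libraries. KLF13 (NM_015995), a SIN3-binding repressor, stood below all of them with 0.478%, 0.455% and 0.474%. Its highest value was under the lowest value of any other member that passed the filter. KLF13 was low only among the members, as its mean rate exceeded that of 85.9% of the 6809 genes with a mean of 200 reads or more. Without 4sU it was at 0.0562% to 0.0685%. Its log2 change was 2.19 (SE 0.26, adjusted p = 0.00217, limma), the smallest of the 9. KLF4, KLF9 and KLF11 had 37 to 212 reads in a library, so their rates rest on few reads. The number of T positions behind a rate is not known, and no counting error can be given for it.

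The adjusted p-values for the higher rate ranged from 0.000454 for KLF6 to 0.00635 for KLF3 (limma on log2(rate + 0.0005)), and 9 of 9 members passed. Over all 10508 genes tested, 50.5% passed in this direction and 0.0761% in the other. The filter asked for a rate above 0 in 3 of 6 libraries, which the labelled group can meet alone. KLF9, at 0%, 0.0486% and 0% without 4sU, met it only with its labelled libraries. So did KLF3, at 0.0468%, 0% and 0.162% without 4sU, and KLF2 was left out by it. The filter therefore favours genes that gain conversions, and the count of 9 of 9 is partly set by it. The median log2 change was 4.04 over the members and 1.26 over all genes. For KLF8, KLF12 and KLF16, which are outside the list, the log2 change was -0.62, 2.13 and 0.47. The members were chosen with earlier results of these data known, so the contrast describes this list only. In all 9 the 3 DMSO 4sU libraries lay above the 3 no 4sU libraries, as in 63.1% of all genes tested. Without replicate 1, KLF3 and KLF11 were no longer past the threshold (adjusted p = 0.0621 and 0.0512, limma).

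**Figure D1:**
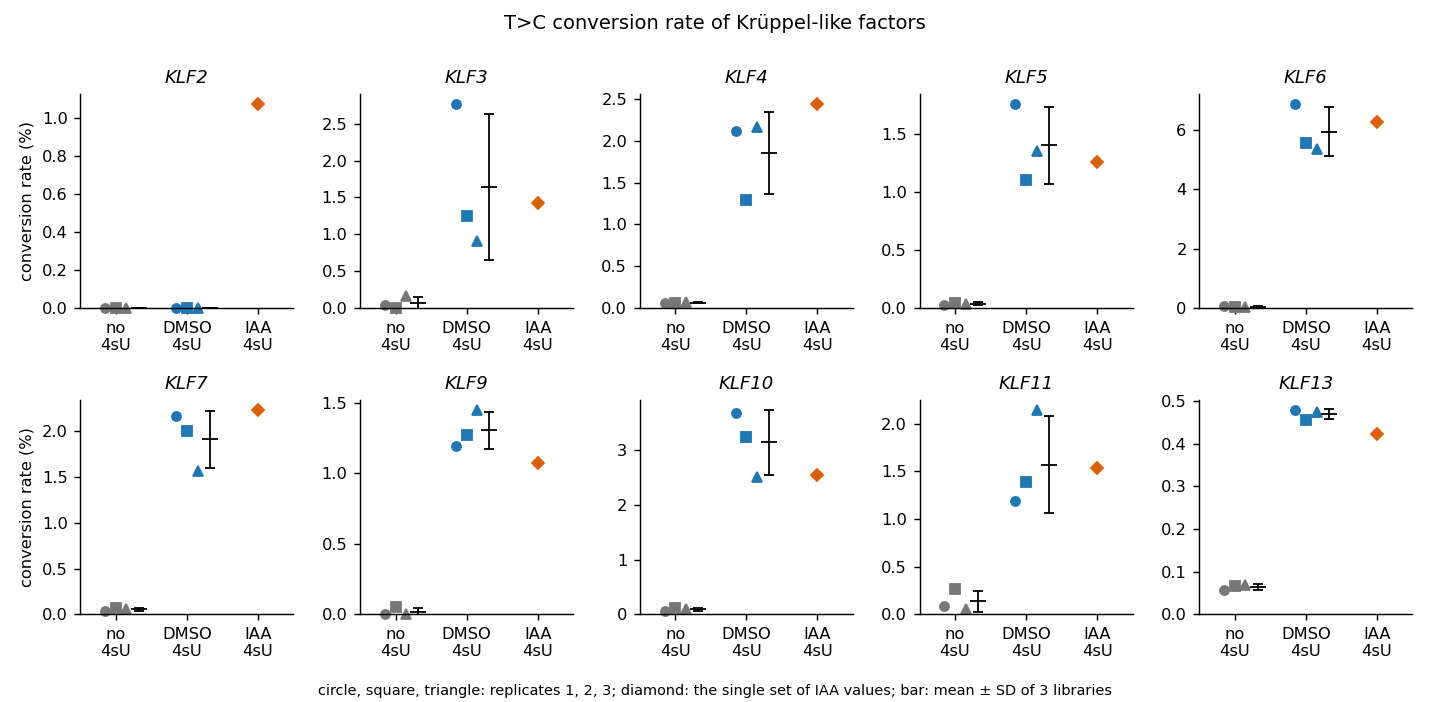
T>C conversion rate in percent (linear axis, own scale for each gene) of the 10 KLFs in the no 4sU, DMSO 4sU and IAA 4sU libraries, with circle, square and triangle for replicates 1, 2 and 3, a diamond for the single set of IAA values and bars for the mean ± SD of 3 libraries. KLF6 reaches 6.87% with label and KLF13 stays under 0.5%, while unlabelled libraries sit near 0.

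The second comparison asks whether KLF mRNA differed in amount between the DMSO 4sU and the no 4sU groups. Total KLF6 and KLF7 mRNA was lower with DMSO and 4sU, and KLF9 and KLF13 were at similar levels in both groups. Since the labels of the no 4sU libraries do not name DMSO, the solvent and 4sU cannot be told apart here. Where a change in total mRNA is given "with 4sU", the DMSO 4sU libraries are meant. KLF6 was at 239, 163 and 158 CPM without 4sU and at 40.2, 27.6 and 38.9 CPM with DMSO and 4sU in replicates 1, 2 and 3. The lowest unlabelled library was well above the highest labelled one. The mean fell from 187 ± 45.6 to 35.6 ± 6.95 CPM (SD, n = 3), a log2 change of -2.39 (SE 0.20, adjusted p = 0.000602, limma on log2(CPM + 1)). Of 11078 genes tested, 9 fell by more. In these bulk libraries, fewer cells with the mRNA and less mRNA per cell cannot be told apart.

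KLF7 was at 96.7, 135 and 135 CPM without 4sU and at 49.6, 39.9 and 49.6 CPM with it. The groups did not overlap, and the log2 change was -1.41 (SE 0.20, adjusted p = 0.00786, limma). This call depended on which libraries were used. Without replicate 2 or replicate 3 in both groups the adjusted p was 0.157 and 0.158 (limma), with log2 changes of -1.22 and -1.36, and without replicate 1 it was 2.8e-05 with a log2 change of -1.7. KLF6 kept its call in these fits (adjusted p from 7.71e-06 to 0.0123, limma).

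KLF10 was at 31.6, 52.2 and 52.5 CPM without 4sU and at 15.5, 18.7 and 24.7 CPM with it. Its log2 change of -1.2 (SE 0.26) did not pass the threshold (adjusted p = 0.0557, limma). The replicate numbers paired the libraries in total mRNA, and with the replicate number as a block KLF10 passed (adjusted p = 0.0129, limma). In edgeR and DESeq2 on the recovered reads it also passed (adjusted p = 0.0497 and 0.00049). In both groups replicate 1 was the lowest.

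Among the other members, KLF3 was at 20.4, 12.6 and 13.6 CPM without 4sU and at 7.56, 8.66 and 8.76 CPM with it. The log2 change was -0.83 (SE 0.19, adjusted p = 0.0740, limma). DESeq2 called KLF3 (adjusted p = 0.0036), and edgeR did not (adjusted p = 0.067). For KLF5 the values were 71.6, 85.2 and 80.7 CPM and 63.9, 56.7 and 62.0 CPM, with a log2 change of -0.41 (SE 0.16, adjusted p = 0.379, limma). Without replicate 1, KLF3 and KLF5 passed (adjusted p = 0.0398 and 0.0142, limma), as did KLF10 (0.000355).

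KLF4 had 10.5, 5.81 and 5.90 CPM without 4sU and 3.99, 3.96 and 4.58 CPM with it (log2 change -0.69, SE 0.22, adjusted p = 0.248, limma). KLF11 had 5.09, 2.77 and 3.68 CPM and 1.97, 2.62 and 1.84 CPM (log2 change -0.63, SE 0.22, adjusted p = 0.302, limma). The groups of both genes did not overlap, but their spread without 4sU was wide. KLF4 and KLF11 had at most 212 and 103 reads in a library.

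KLF13 was at 39.3, 44.4 and 52.4 CPM without 4sU and at 39.4, 48.1 and 44.8 CPM with it, so the groups overlapped. Its log2 change was -0.07 (SE 0.18, adjusted p = 0.925, limma). KLF9, a factor induced by steroid and thyroid hormones, had 4.6, 4.11 and 5.53 CPM and 5.26, 3.12 and 5.28 CPM, again overlapping (log2 change -0.10, SE 0.23, adjusted p = 0.918, limma). The signs of both small changes turned when 1 replicate number was left out, to 0.03 for KLF9 without replicate 2 and 0.04 for KLF13 without replicate 3.

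In all, 2 of 9 members, KLF6 and KLF7, were called lower by limma, where 1.65% of all genes tested were called lower. limma, edgeR and DESeq2 called 0 members higher. At an unadjusted p under 0.05 limma counted 0 members higher and 7 lower. Over all 11078 genes tested it counted 293 higher and 838 lower at that threshold. The log2 change was below 0 in all 9 members, with a median of -0.69, and the median over all genes was 0.04. For KLF8, KLF12 and KLF16, which are outside the list, it was -0.03, -0.16 and 0.21. The members were chosen with earlier results of these data known, so the contrast describes this list and not the KLF family. In 7 of the 9 the 3 libraries with DMSO and 4sU lay below the 3 without 4sU, as in 9.0% of all genes tested. Leaving out 1 replicate number changed this count, as 5 members were called without replicate 1, and KLF6 alone was called without replicate 2 or replicate 3.

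**Figure D2:**
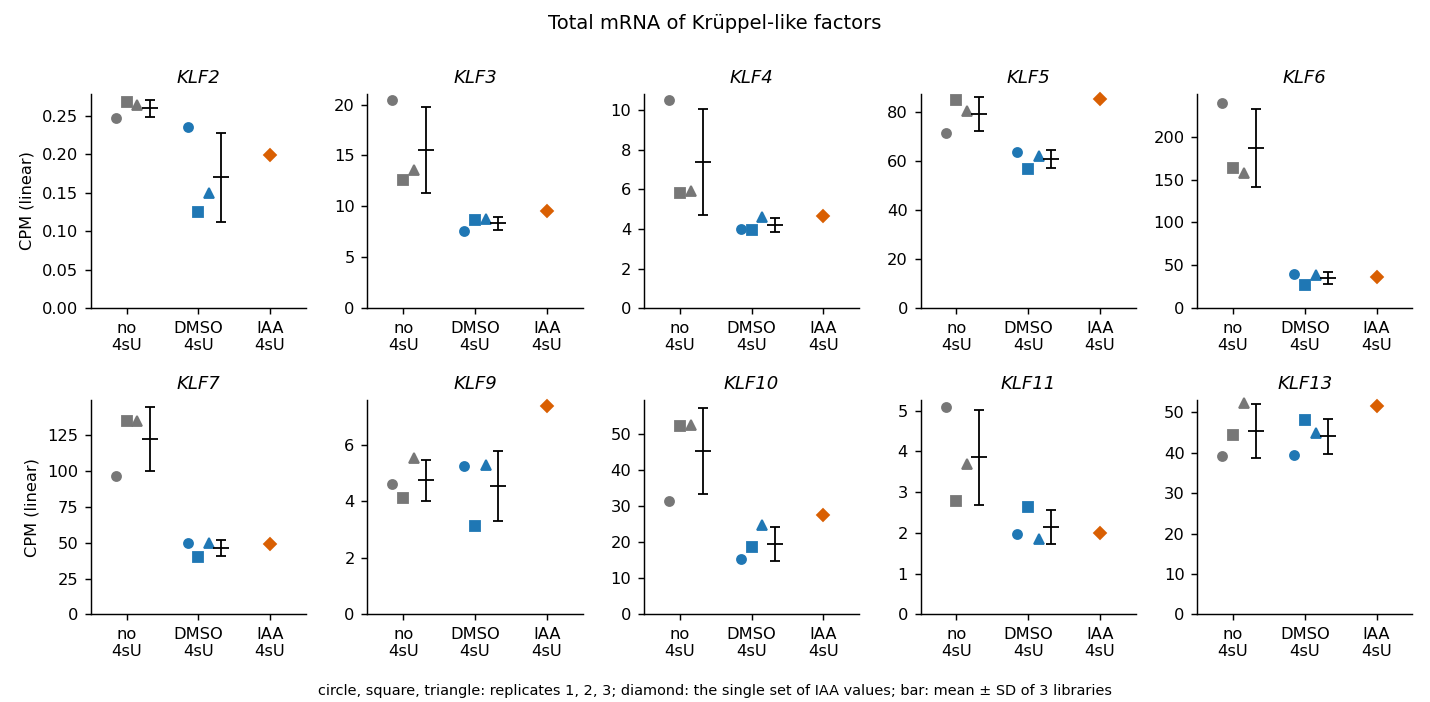
Total mRNA in CPM (linear axis from 0, own scale for each gene) of the 10 KLFs in the same libraries and with the same symbols as in the plot of conversion rates. The labelled libraries of KLF6 sit between 27.6 and 40.2 CPM, below all unlabelled libraries, while those of KLF9 and KLF13 overlap.

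The members with more conversions were also those with the larger fall in total mRNA. Across the 9 members the Spearman correlation between the mean rate with DMSO and 4sU and the log2 change was -0.967. This is a description over genes read in the same 6 libraries, and both measures share the DMSO 4sU libraries. The ranks of the rates from KLF7 down to KLF9 are not settled, so the exact coefficient is not either. The correlation over all genes was not computed, so the relation is not shown to be particular to KLFs. KLF7 lay below KLF10 in rate but had the larger fall, and KLF9 had a rate near that of KLF5 with a change close to 0. Whether the label or its chemistry lowers the reads of labelled mRNA was not tested.

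**Figure D3:**
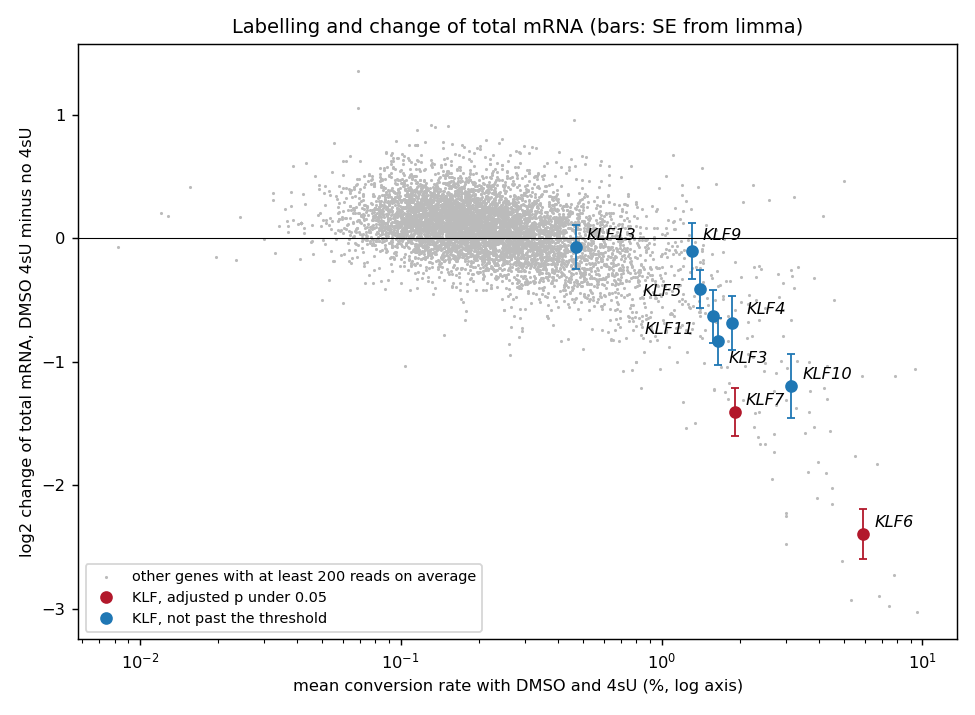
Log2 change of total mRNA between DMSO 4sU and no 4sU libraries against the mean conversion rate with DMSO and 4sU in percent (log axis), for 9 KLFs (points, with bars for the SE from limma) and for other genes with at least 200 reads on average (grey). KLF6 lies at the lower right with 5.93% and -2.39, and KLF13 at the upper left of the KLFs with 0.469% and -0.07.

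Because AU-rich elements in 3′ UTRs are known from short-lived mRNAs, the pentamer ATTTA was counted on the sense strand of the members' 3′ UTRs in GRCh37. For 8 of the 10 members the length of the interval used was within 10 bases of the annotated UTR, which left out KLF2 and KLF10. For KLF10 the interval used covered 1615 bases and the UTR 1351 bases. Another interval of KLF10, of 1358 bases, was within the limit, but it was not the one used, so KLF10 was not counted here. The UTR with the strongest labelling was not rich in the pentamer. KLF6 (chr10:3818188-3821733, minus strand, 3546 bases) held 6 copies, or 1.69 per kb, against a median of 1.73 per kb over 6731 genes. KLF7 (chr2:207938861-207945939, minus strand) held 20 copies, or 2.83 per kb, and KLF5 (chr13:73650022-73651676, plus strand) 5 copies, or 3.02 per kb. KLF13 (chr15:31664500-31670102, plus strand), the least labelled member that passed the filter, had the lowest density with 0.892 per kb, although 34.5% of genes had a lower one. The longer motif TTATTTATT, which contains the pentamer, was found once, in KLF5. It was present in 9.17% of the 6731 genes, and in 14.5% of those with a UTR of at least 1200 bases, as that of KLF5. The following stretches are the first 30-base window with most pentamers in KLF6, KLF7 and KLF13, and the window with the longer motif in KLF5, 5′ to 3′ on the sense strand, from GRCh37. Capitals mark the pentamer or, in KLF5, the longer motif.
KLF6, chr10:3820983-3821012: gtATTTAcaaatataacacaacaATTTAac
KLF7, chr2:207944737-207944766: gcagctgcgtATTTAATTTAactctggttt
KLF5, chr13:73651315-73651344: ttgtttatctTTATTTATTttgtggtaata
KLF13, chr15:31668545-31668574: tcccccATTTAaaaaaggtcATTTAgtcaa
Each match is a run of letters and not a shown binding site.

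The promoters of KLF6 and KLF7, the members called lower, are shown as the 300 bases around a start site that RefSeq gives for GRCh38.p14, 5′ to 3′ on the gene's strand. Capitals mark GGGCGG on either strand, the core of the GC box that KLF and SP proteins bind. The window of KLF6 held 2 matches. That of KLF7 held 4, some overlapping, and the windows of the other 3 start sites listed for KLF7 held 0. At least 1 match was found in 45.0% of 35116 promoter windows.
KLF6, chr10:3785160-3785459: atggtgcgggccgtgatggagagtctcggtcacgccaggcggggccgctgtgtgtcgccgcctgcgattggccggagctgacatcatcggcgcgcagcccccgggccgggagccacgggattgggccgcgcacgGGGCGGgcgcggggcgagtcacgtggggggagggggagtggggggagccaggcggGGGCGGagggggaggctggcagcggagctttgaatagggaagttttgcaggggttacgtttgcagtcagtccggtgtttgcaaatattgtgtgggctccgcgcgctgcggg
KLF7, chr2:207166807-207167106: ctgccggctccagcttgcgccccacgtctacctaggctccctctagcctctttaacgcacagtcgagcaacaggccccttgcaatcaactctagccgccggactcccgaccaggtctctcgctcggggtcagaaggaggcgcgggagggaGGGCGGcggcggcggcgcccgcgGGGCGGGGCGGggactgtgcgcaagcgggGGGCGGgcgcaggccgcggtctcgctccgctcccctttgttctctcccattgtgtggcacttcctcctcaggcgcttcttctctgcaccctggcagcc
The AP-1 motif TGANTCA, to which JUN dimers bind, was in none of the 13 windows of 8 members in that table, and in 7.71% of all windows. GGAATG, the motif of TEAD factors, was in 1 of the 13, another start of KLF7, and in 14% of all windows (both strands). GGGCGG was in 8 of the 13. KLF3 and KLF10 had no entry. These letters being absent from a window says nothing of binding elsewhere.

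The third comparison sets the IAA values, with JUN protein degraded, against DMSO 4sU libraries. The interval of JUN (NM_002228) is its annotated 3′ UTR, and the degron acts on the protein, so that the reads of JUN do not check the depletion. JUN itself was at 30.2, 20.3 and 25.6 CPM in DMSO 4sU replicates 1, 2 and 3 and at 62.9 CPM in the IAA values. No KLF differed by 1 log2 unit in total mRNA, and KLF9, KLF10 and KLF5 had the largest differences of the 9 compared. KLF5 was at 63.9, 56.7 and 62.0 CPM with DMSO and at 85.5 CPM in the IAA values, above all 3 and next to the highest library without 4sU (85.2 CPM). Its log2 difference was 0.40 against the mean and 0.33, 0.51 and 0.37 against replicates 1, 2 and 3. The SD of the DMSO libraries on this scale was 0.09.

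KLF9 was at 5.26, 3.12 and 5.28 CPM with DMSO and at 7.38 CPM in the IAA values, above the 6 other libraries of both groups, from 148 reads. The log2 difference was 0.55 against the mean (SD of the DMSO libraries 0.36) and 0.35, 0.96 and 0.34 against each replicate. KLF10 was at 15.5, 18.7 and 24.7 CPM and at 27.6 CPM in the IAA values. It differed by 0.41, but by 0.06 against replicate 3 alone.

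KLF6 was at 36.4 CPM in the IAA values, within the DMSO range of 27.6 to 40.2 CPM, and KLF7 at 49.3 CPM, within 39.9 to 49.6 CPM. Both thus remained below the unlabelled libraries after IAA. KLF13 was at 51.5 CPM, above 39.4, 48.1 and 44.8 CPM, with a log2 difference of 0.14. KLF3, KLF4 and KLF11 were at 9.52, 4.64 and 1.99 CPM, and their log2 differences to the DMSO mean were 0.10, 0.06 and -0.12.

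After scaling of library sizes with TMM, 5 of 9 members (KLF3, KLF5, KLF9, KLF10 and KLF13) were above the DMSO range and 0 below it. Over 11018 genes, 20.6% were above and 20.8% below. With the deposited library sizes 6 members were above, and over all genes the split moved to 32.3% above and 11.5% below. A difference of at least 1 log2 unit outside the range was found in 0 of 9 members and in 0.145% of all genes. With a single IAA library, a difference between treatments and one between libraries cannot be told apart.

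In the conversion rate the KLFs also stayed close to the DMSO libraries. KLF6 was at 6.26% in the IAA values, within the DMSO range of 5.36% to 6.87%. KLF10 was at 2.55%, near replicate 3 (2.51%) and under replicates 1 and 2 (3.68% and 3.23%). KLF5 was at 1.26%, between replicates 2 and 3.

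KLF4 and KLF7, at 2.44% and 2.23%, were above the highest DMSO library (2.17% and 2.16%). KLF9 and KLF13, at 1.07% and 0.422%, were below the lowest (1.2% and 0.455%). KLF3 and KLF11 were at 1.42% and 1.54%, within their wide ranges. Without any centring, 2 of 9 members were thus above the range and 2 below it, where 28.8% and 17.0% of all 11332 genes compared were.

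Since the libraries differed in median rate, each was also centred on its median on the log2 scale. Then 5 of 9 members (KLF5, KLF6, KLF9, KLF10 and KLF13) were below the DMSO range and 0 above it, against 26.9% and 22.4% of all genes. The largest centred differences were -0.44 for KLF10 and -0.43 for KLF9, with SDs of the DMSO libraries of 0.19 and 0.33. For KLF6 the difference was -0.08 with centring and 0.09 without it, so that its sign depended on the scaling. No member reached 1 log2 unit outside the range, and 20.6% of all genes did. No minimum of reads was set for these genes, so this share is not matched to the members in depth.

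The product of rate (as a fraction) and CPM follows the amount of labelled mRNA in each library. For KLF6 it was 2.76, 1.54 and 2.08 in DMSO 4sU replicates 1, 2 and 3 and 2.28 in the IAA values, inside that range. For KLF5 it was 1.13, 0.624 and 0.839, and 1.08 in the IAA values. KLF10 had 0.570, 0.603 and 0.620 and reached 0.703 in the IAA values, above all 3. KLF4 (0.113 against at most 0.0993), KLF7 (1.1 against at most 1.07) and KLF9 (0.0791 against at most 0.0763) were also above. This made 4 of 9 members above the DMSO range and 0 below it, where 32.4% and 15.4% of the 11332 genes compared were. For JUN the product was 0.931, 0.412 and 0.606 with DMSO and 1.87 in the IAA values.

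**Figure D4:**
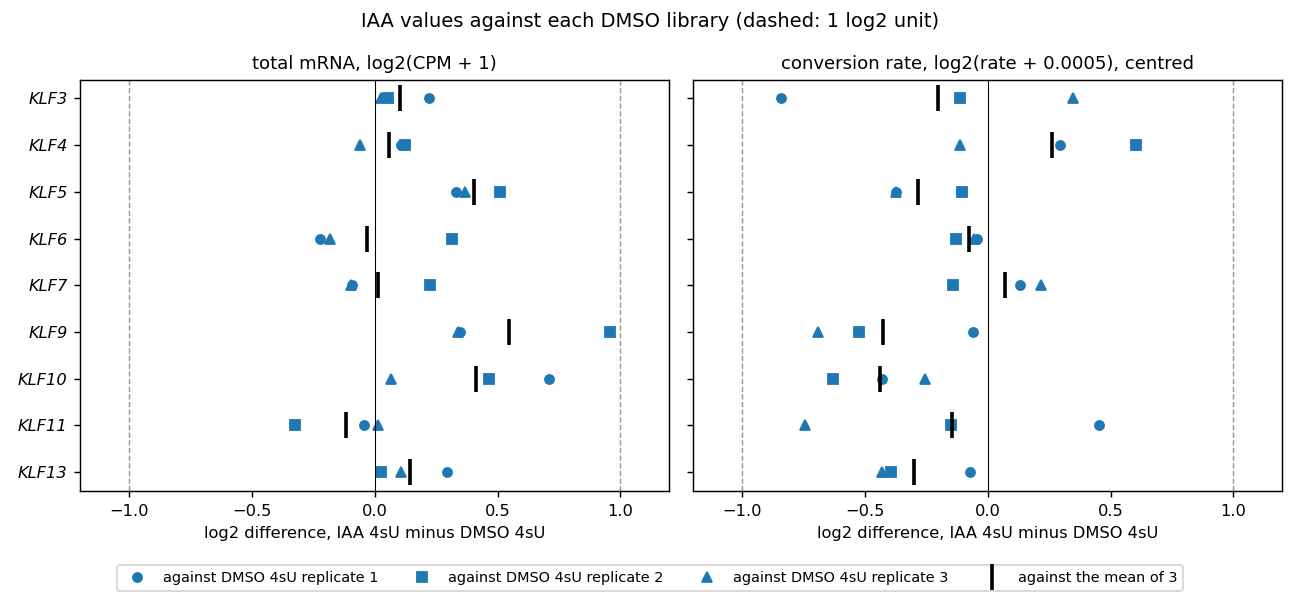
Log2 difference between the IAA values and each DMSO 4sU library (circle, square and triangle for replicates 1, 2 and 3) or their mean (black bar) for 9 KLFs, in total mRNA on the left and in the centred conversion rate on the right, with dashed lines at 1 log2 unit. No KLF reaches the dashed lines, and KLF5 lies right of 0 against each DMSO library in total mRNA.

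Other genes of the KLF network were read for comparison. Of 7 further KLFs, KLF8, KLF12 and KLF16 were tested in total mRNA, and 0 of 3 were called by limma, edgeR or DESeq2, also at an unadjusted p under 0.05. Their log2 changes with 4sU were -0.03, -0.16 and 0.21. KLF1, KLF14, KLF15 and KLF17 had at most 6 reads in any library. In the rate KLF12, a CtBP-binding repressor, passed (log2 change 2.13, adjusted p = 0.0482, limma), with 1.27%, 0.194% and 1.14% in the 3 libraries.

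Of 9 SP factors, which bind the same GC-rich sites, 5 were tested in total mRNA and 0 were called by the same 3 tests, also at an unadjusted p under 0.05. In the rate 6 of 6 passed, where 50.5% of all genes tested did. The filter on the rate favours genes that gain conversions, and SP2, SP4 and SP5 met it only with their labelled libraries. The count is therefore partly set by the filter. SP1, the ubiquitous founder of this group, was at 0.777%, 0.469% and 0.686%, between KLF13 and KLF9. SP4 was at 0.517%, 0.889% and 0.845%. SP5 had the largest change (4.93) but at most 21 reads in a library.

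Among 9 corepressor genes, 0 were called in total mRNA by the same tests, while an unadjusted p under 0.05 in limma was reached by 2, both higher. In the rate 6 of 9 gained conversions, led by SIN3A, the scaffold bound by KLF10 and KLF11 (log2 change 3.0), SIN3B (1.78) and NCOR1 (1.56). Over all genes tested 50.5% passed in this direction, so the count is not read as a trait of these genes. Of 4 coactivators, EP300, a histone acetyltransferase, was called lower with 4sU. It was at 12.7, 10.2 and 8.58 CPM without 4sU and at 4.84, 2.75 and 3.58 CPM with it, so that the groups did not overlap (log2 change -1.33, SE 0.21, adjusted p = 0.0158, limma). Without replicate 2 or replicate 3 the adjusted p of EP300 was 0.228 and 0.192 (limma), with log2 changes of -1.17 and -1.42, and without replicate 1 it was 0.00155 with a log2 change of -1.42. Its rate was 2.9%, 1.46% and 3.69%, and its close relative CREBBP had 1.06%, 0.809% and 0.790%.

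Of 7 genes of the ERK5 and MEF2 pathway, which induces KLF2 and KLF4, 6 were tested in total mRNA and 0 were called by the same tests, with 1 lower at an unadjusted p under 0.05, and MEF2C had 0 reads. In the rate 4 of 5 passed, where 50.5% of all genes tested did. MAPK7, which encodes ERK5, was at a log2 change of 4.34, MEF2D at 2.56 and MEF2A at 2.23. Of 6 genes for turnover of KLF proteins, 0 were called in total mRNA by limma and edgeR and 1 by DESeq2 (FBXW7), with 1 lower at an unadjusted p under 0.05. In the rate 4 of 6 passed, where 50.5% of all genes tested did, so the count is not read as a trait of these genes. FBXW7, a ubiquitin ligase subunit that targets KLF5, was at 1.27%, 1.48% and 0.854% and changed by 3.49, VHL by 2.77 and SMURF1 by 2.67. FBXW7 was at 23.4, 21.1 and 25.3 CPM without 4sU and at 16.0, 13.6 and 13.3 CPM with it (log2 change -0.71, adjusted p = 0.0724, limma).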

How the data were processed

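SLAM-Seq libraries of MCF10A cells were analysed in 3 groups. Reads were processed by the authors with the nf-core workflow for this assay (hg19 per the submitters' processing notes). The deposited values are conversion rates, each a fraction of T positions, and a CPM signal per 3′ interval. These CPM were whole reads in 100% of non-zero values (tolerance 0.01 reads). Identifiers were matched through RefSeq (GRCh38.p14, names only, 97.7% of rows). The coverage on T positions is unknown.

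For each gene the interval with most reads was used. Summing intervals, first planned, counts the same reads 3 times for KLF6 and KLF7, and averaging lowers KLF13's rate (0.234% for 0.469%) through a short interval at 0, so both became alternatives. limma 3.58.1 (R 4.3.3, trended and robust) was run over all genes on log2(CPM + 1) with TMM sizes (at least 1 CPM in 3 of 6 libraries) and on log2(rate + 0.0005) (rate above 0 in 3 of 6). Calls used a Benjamini-Hochberg adjusted p of 0.05. A log2(value + pseudocount) change understates that of low genes. edgeR 4.0.16 and DESeq2 1.42.0 were run on recovered reads. The fits were tested on simulated data, where the rate test made more false calls than nominal among genes with few reads. IAA values were called at 1 log2 unit from the DMSO mean and outside its range, without a test, among genes with at least 1 CPM, or a rate above 0, in 2 of 4 labelled libraries.

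Same-numbered deviations from group means correlated by 0.393, 0.316 and 0.377 in total mRNA and by -0.0179, -0.0162 and 0.000549 in the rates, so the numbers pair the libraries in total mRNA. The members and lists were chosen with earlier results of these data known. All members were named, and of other lists at most the 3 largest changes past the threshold.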

Additional observations from a re-analysis of the deposited data

How the results depend on the processing

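The count of KLFs called lower in total mRNA was 2, and it was 4 in DESeq2 and from 1 to 5 with a replicate number left out. The count over all genes, 183, was 385 in DESeq2 and from 25 to 474 with a replicate number left out. With the replicate block, which pairs the libraries in total mRNA, 208 genes and 3 KLFs were called, and KLF10 was the KLF gained. The log2 change of KLF9 ranged from -0.281 to 0.0284 and that of KLF13 from -0.173 to 0.0366 with a replicate number left out, KLF9 turning sign without replicate 2 and KLF13 without replicate 3. In the conversion rate 5307 genes were higher, from 2483 to 2933 with a replicate number left out. With the block, where the numbers do not pair the rates, 4381 genes and 9 KLFs were. With at least 200 reads on average, 6 KLFs remained and all 6 were called. For IAA against DMSO, 16 genes were called in total mRNA, against 55 with a pseudocount of 0.25, 26 with the deposited library sizes and from 12 to 101 with a DMSO library left out (101 without replicate 1). No KLF was called in these settings in total mRNA or in the rate. The cause of these moves was not tested, and the settings with a replicate number or a DMSO library left out also had fewer libraries. No paired analysis was possible because the replicate number of the single IAA library is unknown, which concerns the comparison with DMSO.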
